A study of Homo sapiens and Mus musculus with 16 samples.

Results

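The regions of open chromatin at 9 genes of the transforming growth factor beta (TGF-beta) pathway, TGFB1, TGFB2, TGFB3, TGFBR1, TGFBR2, SMAD2, SMAD3, SMAD7 and SKIL, were described in HPAF-II cells and, through their mouse orthologs, in KPC cells. A region belonged to a locus where it overlapped the gene body or the 50 kb on either side, whatever its score. The 9 windows held 134 of the 118107 regions of the control (Cas9) list, 123 of the 97047 regions of the HNF4G-KO list, 107 of the 68074 regions of the KPC primary tumor list and 121 of the 80843 regions of the KPC liver mets list. All 9 genes had regions in all 4 lists.

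TGF-beta ligands are secreted in a latent form and, once released, bind a pair of receptor kinases, the type 2 receptor TGFBR2 and the type 1 receptor TGFBR1. The active type 1 receptor phosphorylates SMAD2 and SMAD3, which join SMAD4, enter the nucleus and act on target genes together with other transcription factors such as those of the AP-1 family. SMAD7 blocks the receptor and SKIL, also called SnoN, represses SMAD target genes, and both are themselves induced by the pathway. In pancreatic epithelium the pathway restrains growth, and in pancreatic cancer, where SMAD4 is often lost, it is also known for promoting a mesenchymal state and spread.

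The assay was ATAC-seq, where a transposase cuts and tags DNA that nucleosomes leave open, on 16 samples in 4 groups of 4 replicates. HPAF-II is an established human pancreatic adenocarcinoma line. Its control (Cas9) cells were labelled WT and had received CRISPR-Cas9, and its HNF4G-KO cells, per the study's methods a pool of clones with frameshift mutations, had been edited with guides to HNF4G, a gene for a nuclear receptor of the hepatocyte nuclear factor 4 family. The KPC lines were untreated mouse lines labelled wild type and described as matched and isogenic, one from the primary tumor and the other from liver mets of the KPC model, a genetically engineered mouse model of pancreatic cancer. No ages were given for the mice of origin, and a difference between the KPC lists is a difference between a pair of cell lines.

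Each group was held as 1 region list standing for its 4 replicates, so no value per replicate and no read depth were known and no difference below has a replicate check or a p-value. A region is called shared when it overlaps a region of the other list of its pair by at least 1 bp, and otherwise control-only, KO-only, tumor-only or mets-only. Each region also carries a score of unstated scale, used here as a percentile, the rank of the score within its own list from 0 (weakest) to 100. Wilson 95% intervals on shares cover counting error only. The start-site regions of cell type markers were checked in every list. Of 8 epithelial markers, 8 had one in both HPAF-II lists and 7 in both KPC lists, Cldn4 being without one. Of 5 leukocyte markers, 2 had one in control and 1 in HNF4G-KO and none in the KPC lists, fibroblast markers had 3 of 5 in HPAF-II and 1 of 5 in KPC, endothelial markers 0 of 3 in HPAF-II and 2 of 3 in KPC, and hepatocyte markers 1 of 3 in every list but mets, which had 0. These counts leave out strength. In the KPC tumor and mets lists, epithelial Epcam reached percentile 16.1 and 13.9, and Elf3 81.8 and 86.5. Endothelial Pecam1 reached 84.3 and 70.4 there, so presence alone does not settle cell type. The strongest start-site region of HNF4G itself stood at percentile 82.4 in control and 82.7 in HNF4G-KO, so the lists did not tell the edited cells from the control cells by this gene, and frameshift editing need not change its accessibility.

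The sequences that the account returns to are the central 200 bases of single regions, read from the plus strand of hg38 or mm10, in lower case with consensus letters in capitals. At TGFBR2 the pair of control regions holding the HNF4 letters CAAAGTCCA are shown because HNF4 factors bind such letters. They were the only regions with these letters at the 9 loci in control (chr3:30583952-30584151 and chr3:30596253-30596452, the latter with the letters on the other strand, read as TGGACTTTG, and with AP-1 letters as well). The TGFB1 KO-only region (chr19:41367888-41368087) was the strongest KO-only region of the loci. These 3 windows come from human hg38.
TGFBR2, farther upstream: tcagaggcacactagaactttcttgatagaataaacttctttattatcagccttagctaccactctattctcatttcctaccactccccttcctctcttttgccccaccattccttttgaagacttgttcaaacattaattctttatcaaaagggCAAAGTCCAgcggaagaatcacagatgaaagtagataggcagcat
TGFBR2, nearer upstream: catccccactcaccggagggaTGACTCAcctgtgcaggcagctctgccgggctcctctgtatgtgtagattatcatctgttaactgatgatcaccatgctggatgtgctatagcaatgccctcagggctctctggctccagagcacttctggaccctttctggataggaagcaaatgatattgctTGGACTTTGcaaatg
TGFB1, KO-only: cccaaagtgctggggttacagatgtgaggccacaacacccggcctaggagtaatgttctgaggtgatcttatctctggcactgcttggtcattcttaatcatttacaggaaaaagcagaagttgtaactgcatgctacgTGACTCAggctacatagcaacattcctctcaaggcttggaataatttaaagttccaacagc

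From mouse mm10, the 2 strongest mets-only regions of Tgfb2 are shown (chr1:186619837-186620036 and chr1:186722044-186722243), since this gene had the highest mets-only share of the loci. The Smad3 region (chr9:63803308-63803507) had the largest rise among regions that paired 1 to 1, and the Tgfb3 region (chr12:86014752-86014951) was the strongest tumor-only region. Capitals mark AP-1 letters (TGACTCA) and, in the strongest Tgfb2 region, TEAD letters (TGGAATGT, which is ACATTCCA on the other strand) as well.
Tgfb2, mets-only, percentile 52.4: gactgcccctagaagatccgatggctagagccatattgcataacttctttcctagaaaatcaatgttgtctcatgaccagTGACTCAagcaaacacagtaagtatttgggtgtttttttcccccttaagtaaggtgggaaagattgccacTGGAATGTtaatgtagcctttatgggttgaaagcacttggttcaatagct
Tgfb2, mets-only, percentile 38.8: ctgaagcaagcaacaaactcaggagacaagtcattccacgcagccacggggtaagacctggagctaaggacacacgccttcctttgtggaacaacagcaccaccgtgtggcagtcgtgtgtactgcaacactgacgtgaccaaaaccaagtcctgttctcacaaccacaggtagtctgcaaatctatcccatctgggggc
Smad3, largest rise: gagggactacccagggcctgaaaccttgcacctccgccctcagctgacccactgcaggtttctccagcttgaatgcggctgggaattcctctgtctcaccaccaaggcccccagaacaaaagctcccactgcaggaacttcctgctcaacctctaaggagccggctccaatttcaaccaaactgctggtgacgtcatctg
Tgfb3, tumor-only: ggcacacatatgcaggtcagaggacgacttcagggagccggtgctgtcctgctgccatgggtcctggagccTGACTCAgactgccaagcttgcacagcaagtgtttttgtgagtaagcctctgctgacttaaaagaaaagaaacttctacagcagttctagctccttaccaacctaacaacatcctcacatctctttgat

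**Figure D1:**
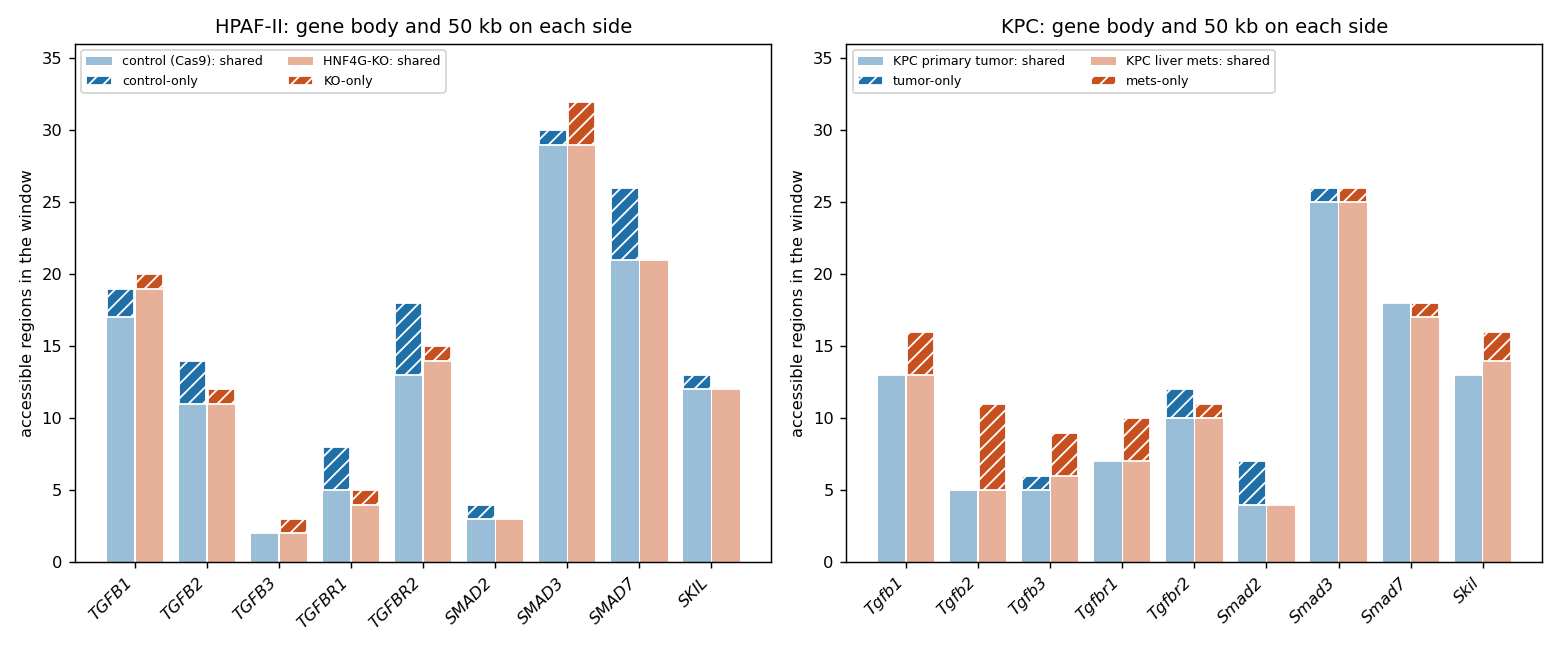
Number of accessible regions (y axis) in the window of each gene (x axis), HPAF-II on the left and KPC on the right, with pale bars for regions shared by both lists of a pair and hatched bars for regions in that list alone. SMAD3 had the most regions in all 4 lists, and the 6 hatched mets-only regions of Tgfb2 stand above 5 shared ones.

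SMAD3 carried the most regions in every list, 30 in control, 32 in HNF4G-KO and 26 in each KPC list, and SMAD7 came next with 26, 21, 18 and 18. At the low end, TGFB3 had 2 regions in control and 3 in HNF4G-KO, and SMAD2 had 4 and 3. Allowing for window length, SMAD7 had the densest window, 19.8 regions per 100 kb in control, above 99.5% of protein-coding genes, against 13.0 for SMAD3 and 1.60 for TGFB3. In KPC the density of Smad7 was 14.0 in both lists, the highest of the loci.

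Of the 134 control regions at the loci, 21 were control-only, 15.7% (interval 10.5 to 22.8), where the background over the whole control list was 25.0%. A region's score bears on whether it is shared, and control regions of the same score deciles were control-only in 22.1%. Of the 123 HNF4G-KO regions, 8 were KO-only, 6.50% (3.33 to 12.3), against 6.76% of the whole list. The control-only interval ended below the list's value and reached past that of the matching deciles, and the KO-only share was near its background. The order of the loci and the list turned when the upper 50% of both lists by score was paired anew. The control-only share was then 30.3% at the loci and 22.1% over the list. There a region also counted as control-only when its HNF4G-KO partner fell below the cut. In the full lists no region of the loci above percentile 37.0 was control-only. In lists cut to their strongest 87342 regions each and paired anew, where partners could again fall below the cut, the shares were 8.41% and 13.7%.

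Of the 107 primary tumor regions, 7 were tumor-only, 6.54% (3.21 to 12.9), beside 8.51% of the whole list. Of the 121 mets regions, 20 were mets-only, 16.5% (11.0 to 24.2), beside 20.2%. Both intervals held the background. Regions in a single list were weak and narrow: their median percentile was 15.8 for control-only, 7.76 for KO-only, 4.65 for tumor-only and 12.4 for mets-only, while shared regions had medians from 49.3 to 60.9. No control-only region passed percentile 37.0 and no tumor-only region passed 13.6, while the strongest KO-only region stood at 43.6 and the strongest mets-only region at 52.4. Median widths were 256 to 290 bp for regions in a single list and 492 to 654 bp for shared ones.

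**Figure D2:**
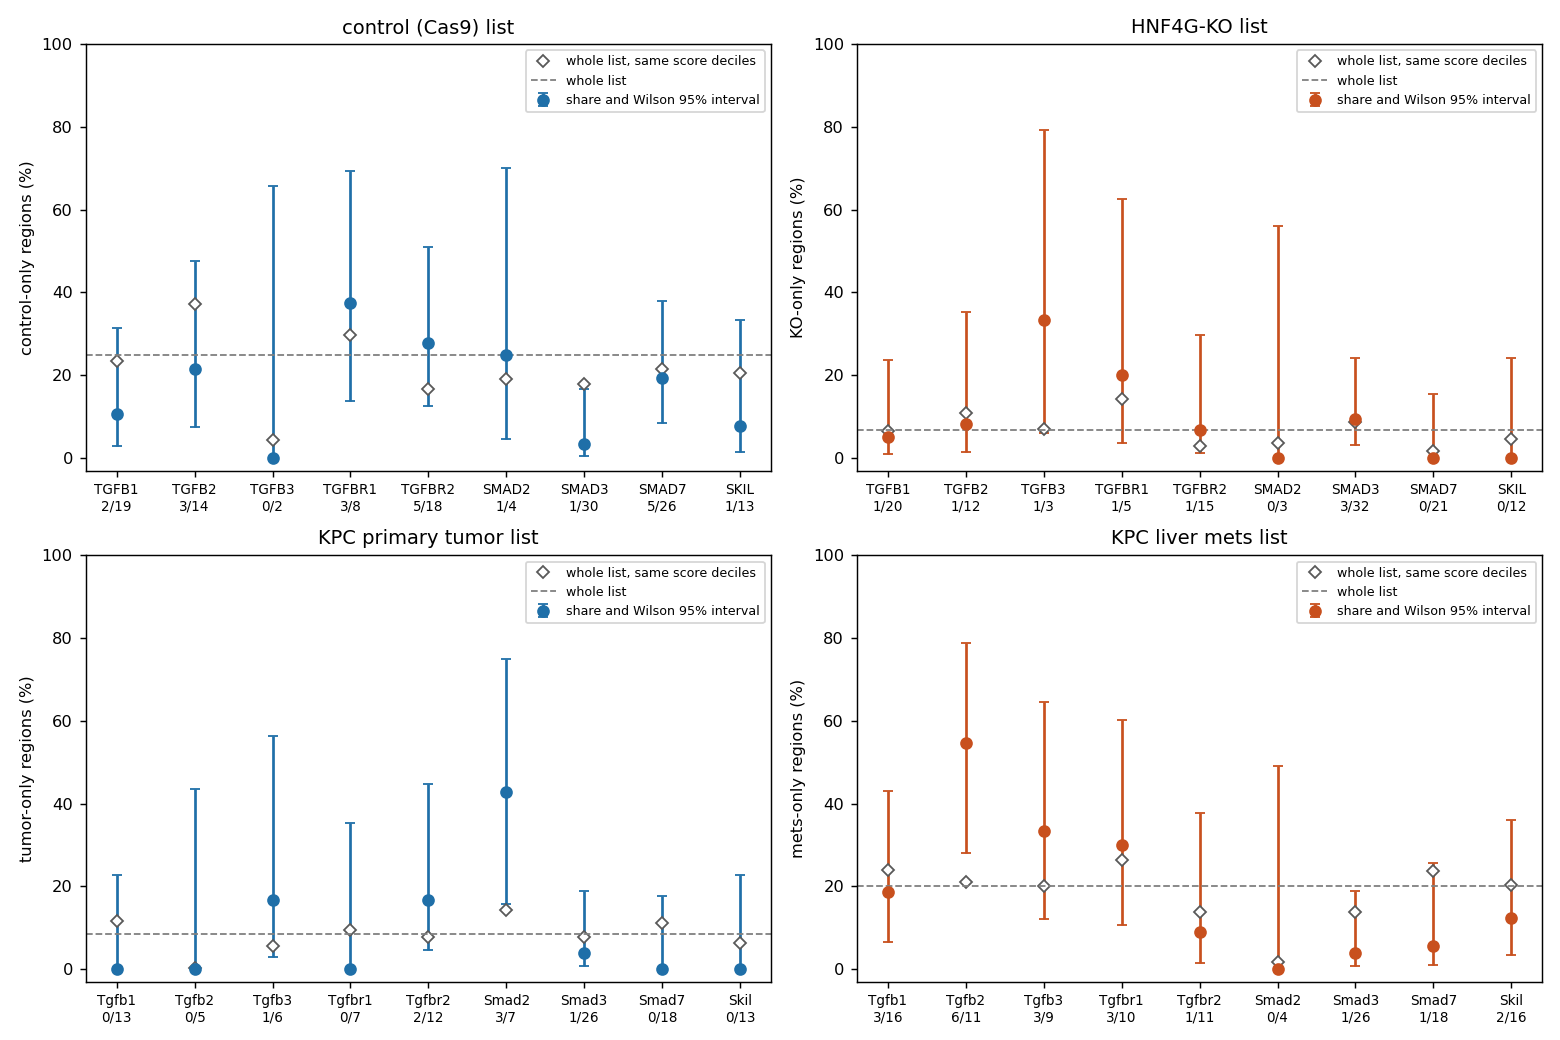
Share of each gene's regions found in that list alone (y axis, percent) with its Wilson 95% interval, for the 4 lists, the counts being printed under the gene names, beside the share in the whole list (dashed line) and in regions of the same score deciles (diamonds). Tgfb2 in mets and Smad2 in the primary tumor lie above the diamonds with their whole intervals, and SMAD3 in control lies below, while most other intervals hold them.

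Among the ligands, the TGFB1 window on chromosome 19 (gene body chr19:41301587-41353922) is crowded, with 8 other protein-coding genes in it, and 10 of its 19 control regions lay at start sites of other genes. The region over the annotated start of the gene (chr19:41353290-41354204) stood at percentile 55.3 in control and, split there into 2 regions, at 50.5 over the start and 20.4 beside it in HNF4G-KO. Slightly inside the gene, beside another TGFB1 start site, chr19:41352451-41352984 went from 59.9 to 34.5. In the other direction chr19:41380009-41380588, upstream of TGFB1 and inside TMEM91, went from 22.0 to 56.4, and the KO-only region shown above lay inside TMEM91 too. The TGFB1 median over 17 shared regions moved by -8.37 points, with 14 lower and 3 higher, and by -0.57 when shared regions were ranked among themselves.

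The mouse Tgfb1 window had 13 tumor regions, all of them shared, and 3 mets-only regions among 16, the strongest at percentile 34.9 inside Hnrnpul1. Its start-site region (chr7:25687057-25687713) stood at 23.6 in the tumor and 17.4 in mets, and the stronger one within the gene (chr7:25688813-25689972) at 75.8 and 69.1. No shared Tgfb1 region moved by 20 points.

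TGFB2 (chr1:218345336-218444619) kept a strong start-site region in HPAF-II, chr1:218344872-218346297, at percentile 74.7 in control and 70.8 in HNF4G-KO. Downward steps of 20 points or more were seen at 3 of its 11 shared regions: an intronic region at chr1:218380550-218380835 (51.4 to 29.5), the start site of the noncoding LINC02869 at chr1:218459914-218460730 (59.7 to 38.2), and a region inside LINC02869 at chr1:218487786-218488354 (30.3 to 9.66). No TGFB2 region rose by as much. Its 3 control-only regions were at percentile 8.13 or lower, and its 1 KO-only region stood at 3.80.

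The 250 bases before the TGFB2 start (RefSeq, GRCh38.p14, chr1:218345086-218345335, plus strand) lay under that region in both lists and are shown as a promoter with consensus letters. SMAD letters CAGACA begin 53 bases and TEAD letters ACATTCCA 186 bases before the start, and 13.6% and 1.01% of all 35116 RefSeq promoters hold them on either strand. This promoter was chosen for printing after the values were seen.
TGFB2 promoter: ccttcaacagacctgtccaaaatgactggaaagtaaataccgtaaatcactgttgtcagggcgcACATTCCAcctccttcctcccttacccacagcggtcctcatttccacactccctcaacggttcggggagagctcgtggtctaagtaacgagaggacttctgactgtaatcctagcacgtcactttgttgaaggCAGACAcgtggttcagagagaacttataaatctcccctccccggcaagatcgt

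In mouse, Tgfb2 (chr1:186622792-186705989) showed the highest mets-only share of the 9 loci. All 5 tumor regions were shared, while 6 of 11 mets regions were mets-only, 54.5% (28.0 to 78.7), where matching score deciles gave 21.1% and chromosome 1 gave 24.5%. The share was higher than that of 97.2% of the 14676 genes with at least 5 mets regions in their window. A gene picked as the highest of 9 tends to rank high.

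The strongest of the 6, chr1:186619741-186620132 at percentile 52.4, lay just past the 3′ end of the gene, and its central bases held the AP-1 and TEAD letters shown above. The next, chr1:186721982-186722305 at 38.8, lay upstream inside Rrp15 and held none of the searched letters. The other 4 stood at 30.4, 7.95, 7.68 and 3.12. The 5 regions that both KPC lists held were strong, from 66.0 to 78.7 in the tumor and from 63.9 to 88.5 in mets, and none moved by 20 points. The start-site region itself changed little, 66.0 in the tumor and 63.9 in mets.

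**Figure D3:**
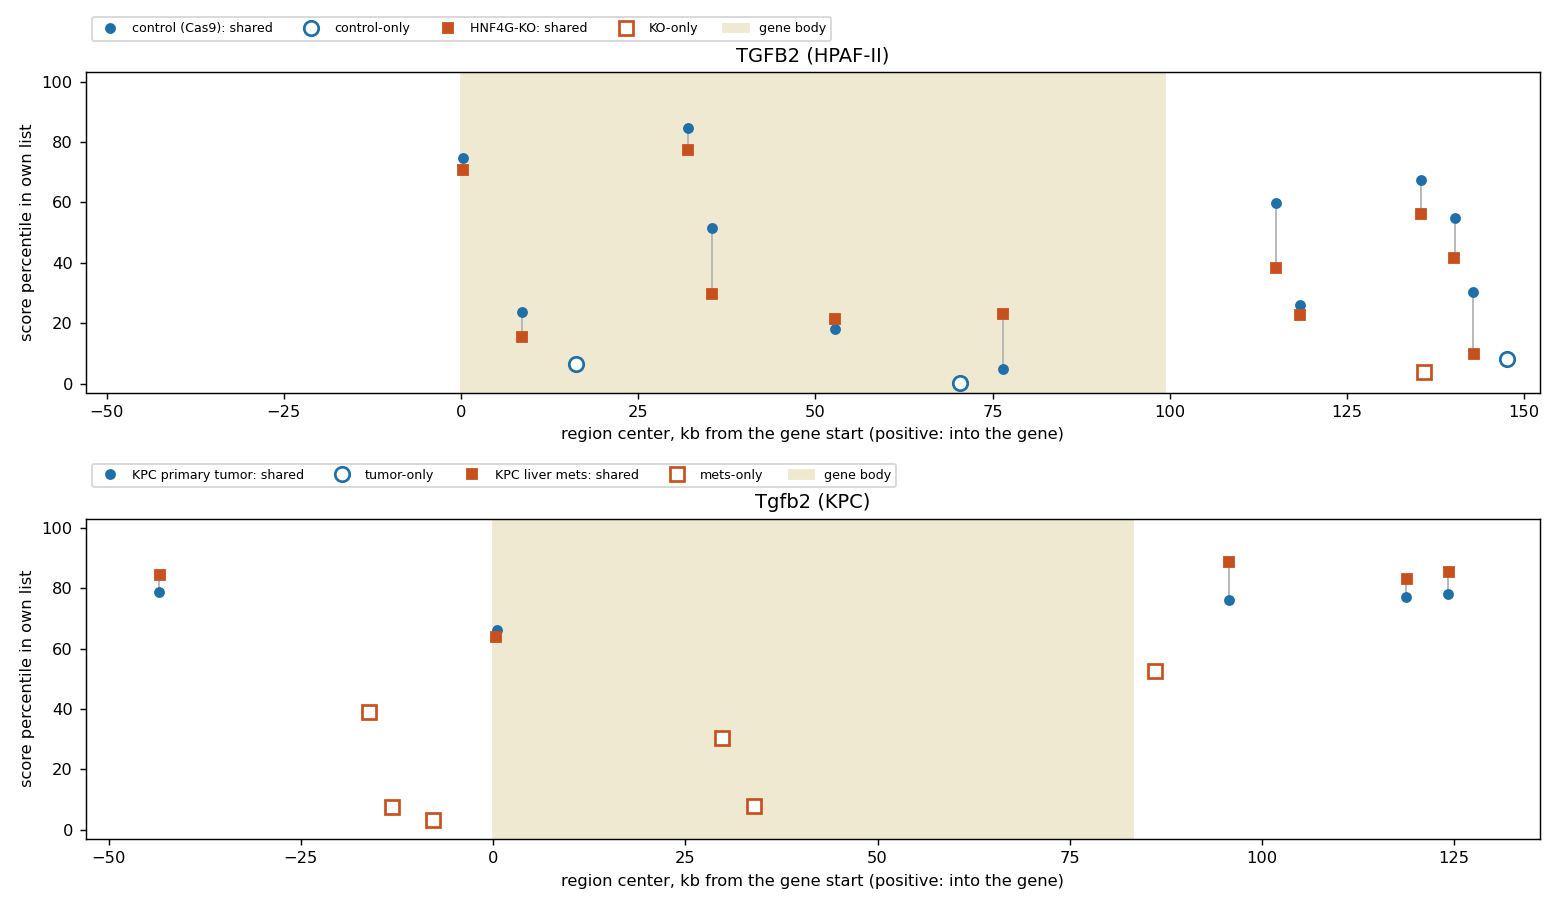
Regions of TGFB2 in HPAF-II (top) and Tgfb2 in KPC (bottom) by distance of the region center from the gene start in kb (x axis) and score percentile in the own list (y axis), with circles for the first list, squares for the second, open symbols for regions in that list alone, gray lines joining shared regions and shading for the gene body. The KPC start-site symbols lie close together at 66.0 and 63.9, and the 6 open squares lie between 3.12 and 52.4 with no open circle.

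TGFB3 was the sparsest ligand in HPAF-II. Its start-site region (chr14:75981547-75983050) stood at 67.2 in control and 69.5 in HNF4G-KO, the other shared region lay at the start of IFT43, and a KO-only region at percentile 11.5 lay beside it. In KPC the start-site region of Tgfb3 in the tumor (chr12:86078883-86079740) stood at 60.8 and overlapped 2 mets regions. The mets region over the start site (chr12:86078896-86079188) stood at 34.3 and the other, beside it, at 57.0. All 3 mets-only regions were weaker than that, at percentile 13.8, 30.7 and 42.0. The one at 30.7 (chr12:86078522-86078763) lay within 1 kb of the Tgfb3 start site, beside the shared regions, and it was the only mets-only region at a start site of any of the 9 genes.

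Among the receptors, TGFBR1 (chr9:99104038-99154192) showed the highest control-only share, 3 of 8 regions or 37.5% (13.7 to 69.4), where matching deciles gave 29.8%. The strongest of these, chr9:99140833-99141042, lay in an intron at percentile 33.0. Past the 3′ end of the gene, a shared region went from percentile 59.5 to 2.35, a fall of 57.2 points. Among control regions taken with their longest overlap, it had the largest fall at the loci. Ranked among the shared regions alone it still fell by 44.9.

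The start site of TGFBR1 was covered in control by 2 regions, at percentile 89.1 and 52.3, and in HNF4G-KO by a single region (chr9:99104462-99106034) at 93.4 that spans both. The apparent rise of chr9:99105411-99106134 from 52.3 to 93.4 therefore compares part of a wider region with the whole. In KPC the start-site region of Tgfbr1 (chr4:47352833-47353624) stood at 62.3 in the tumor and 81.4 in mets, and an intronic region, chr4:47399888-47400096, went from 13.1 to 33.3.

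TGFBR2 (chr3:30606601-30694142) had the strongest start-site region of the ligands and receptors in both HPAF-II lists, chr3:30605751-30607051, at 97.9 and 96.4, with a further HNF4G-KO region at 31.8 under the same control region. It had 5 control-only regions among 18, from percentile 15.8 to 37.0, the highest being over an exon near the 3′ end (chr3:30693583-30693851). Falls of 20 points or more were seen at chr3:30625758-30626703 (64.8 to 43.8) and at chr3:30708357-30709049 past the gene's end (77.4 to 46.9).

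The HNF4 letters fell in 2 TGFBR2 regions that moved in opposite directions. The region at chr3:30583794-30584309 went from 47.7 in control to 57.0 in HNF4G-KO, and its letters were in the central 200 bases in both lists. The region at chr3:30596125-30596580 went from 61.9 to 44.4, and its HNF4 letters lay inside the control region but past the end of the narrower HNF4G-KO region (chr3:30596186-30596419). Neither moved by 20 points on this scale. Among the shared regions alone, the changes were 21.97 points for the former and -8.995 for the latter. In KPC, Tgfbr2 (chr9:116084293-116175360) had a start-site region at 76.7 in the tumor and 77.3 in mets. A neighbor, chr9:116174435-116174677, appeared to rise from 13.9 to 77.3, but 1 mets region spans both. A 1 to 1 rise was seen at chr9:116223331-116223763, from 68.5 to 88.8.

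Of the receptor-activated SMAD genes, SMAD2 had few regions and a strong start-site region in HPAF-II, at 96.3 in control and 97.4 in HNF4G-KO. An intronic region, the only one of SMAD2 in control, went from 76.2 to 25.6, and by -47.0 points among the shared regions. Among control regions taken with their longest overlap, this was the next largest fall after that of TGFBR1. It was the largest when ranked among the shared regions. In KPC, 3 of 7 tumor regions of Smad2 were tumor-only, 42.9% (15.8 to 75.0), higher than in 99.5% of 13527 genes with at least 5 tumor regions. All 3 were weak, at percentiles 4.11, 4.65 and 12.7. The start-site region of Smad2 was strong in both KPC lists, 82.3 and 75.8.

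SMAD3 (chr15:67063763-67195173) had 1 control-only region among 30, 3.33% (0.59 to 16.7), where matching deciles gave 17.9%, and 3 KO-only regions among 32, the strongest (chr15:67089291-67089544) at percentile 26.8 in an intron. Its start-site regions near the 5′ end stood at 62.2 and 72.6 in control and at 44.0 and 78.5 in HNF4G-KO. Its strongest regions, chr15:67174607-67175369 (98.6 and 93.9) and chr15:67127064-67128259 (97.3 and 95.2), both lay at start sites of shorter transcripts.

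Weaker SMAD3 regions carried the falls. In HNF4G-KO, chr15:67121066-67121413 went from 50.8 to 9.66, chr15:67240326-67240614 inside AAGAB from 44.5 to 5.19, and chr15:67027935-67028241 upstream from 68.0 to 35.0. The remaining falls were those at chr15:67116547-67117124 (51.4 to 24.0) and chr15:67077762-67078266 (36.5 to 14.8). The single rise of 20 points, at chr15:67098845-67099139 (28.8 to 55.9), was again a pair of control regions under 1 HNF4G-KO region. Over 29 shared regions the median moved by -0.78 points, where all shared HPAF-II regions moved by -4.65. Ranked among the shared regions alone, the SMAD3 median moved by 4.97 points, with 18 higher and 11 lower.

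In KPC the mouse Smad3 locus is at chr9:63646767-63757994. Of 25 shared regions, 19 were higher and 6 lower in mets, the median moved by 10.97 points, and 6 were higher by 20 points or more. The median over all shared KPC regions moved by 3.67 points. Among the shared regions alone, Smad3 moved by 6.75 points, with 16 higher and 9 lower, so that on this scale the medians of both species were above 0. The same held for SKIL, SMAD7 and TGFBR1, and for all shared regions (0.68 in HPAF-II and 0.99 in KPC). The largest rise was at chr9:63803174-63803640, upstream of the gene, from 24.8 to 70.1. Within introns, chr9:63657128-63657765 went from 41.3 to 75.5, chr9:63665027-63665315 from 9.05 to 35.3, chr9:63721727-63722059 from 15.5 to 40.6, chr9:63718731-63719104 from 50.4 to 73.9 and chr9:63726484-63726954 from 27.2 to 47.6. All 6 of these paired 1 to 1. The start-site region stood at 47.8 in the tumor and 59.5 in mets.

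**Figure D4:**
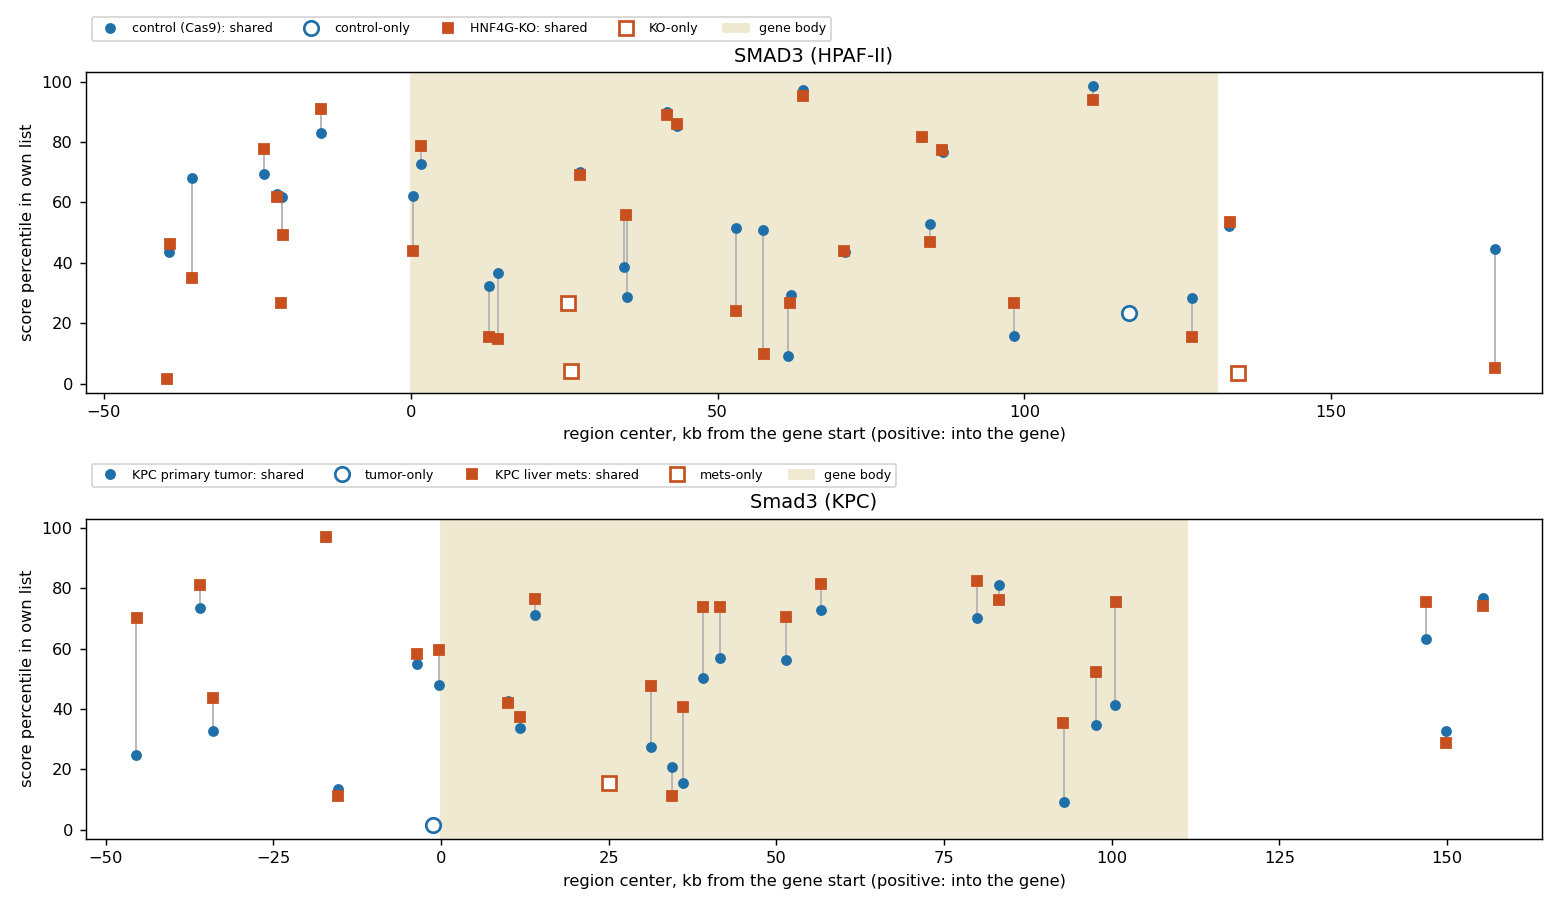
Regions of SMAD3 in HPAF-II (top) and Smad3 in KPC (bottom) by distance of the region center from the gene start in kb (x axis) and score percentile in the own list (y axis), with circles for the first list, squares for the second, open symbols for regions in that list alone, gray lines joining shared regions and shading for the gene body. Squares lie above circles at 19 of the 25 shared Smad3 regions and below them at 17 of the 29 shared SMAD3 regions, while 11 of those 29 were lower when ranked among the shared regions alone.

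The inhibitor SMAD7 had 5 control-only regions among 26 and no KO-only region among 21, which allows a share of up to 15.5% by the Wilson interval. Of the 3 control-only regions at a start site of any of the 9 genes, 2 were at SMAD7, at percentiles 26.2 and 0.29, and the other was at a start site of a shorter SMAD3 transcript (chr15:67180532-67180988, 23.4). The region nearest to the main SMAD7 start site stood at 28.1 in control and 42.1 in HNF4G-KO. Regions of SMAD7 that fell by 20 points went from 64.8 to 41.0 in an intron and from 75.0 to 52.3 upstream. Over its 21 shared regions the median change was 0.73 points, with 10 lower and 11 higher, and 4.47 among the shared regions alone, with 5 lower and 16 higher.

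In KPC, all 18 tumor regions of Smad7 were shared and 1 of 18 mets regions was mets-only, at percentile 17.9. Its start-site region was modest, 29.2 in the tumor and 26.2 in mets. Downstream of the gene, a region went from 73.2 to 33.3. With each tumor region paired to its longest mets overlap, this was the only fall of 20 points at the 9 KPC loci. Mets regions under part of a wider tumor region changed by -26.5 points at chr12:86078896-86079188 (Tgfb3) and by -23.5 at chr9:116222023-116222263 (Tgfbr2). An apparent rise at Smad7 from 12.7 to 67.3 was a pair of tumor regions under 1 mets region.

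SKIL (chr3:170357342-170396835) had a start-site region, chr3:170356573-170358650, at percentile 82.2 in control and 92.6 in HNF4G-KO. The start site of the neighboring tight junction gene CLDN11, chr3:170418392-170419103, went from 33.9 to 55.9, and a nearby region, chr3:170414158-170414639, from 46.5 to 20.4. The only control-only region was weak, at 6.42. In KPC the region over the start of Skil (chr3:31094895-31096023) stood at 39.1 in the tumor and overlapped mets regions at 33.7, over the start, and 35.3. In all, 4 of 13 shared regions were higher by 20 points in mets. They were chr3:31057012-31057620 (47.7 to 72.3), chr3:31075879-31076186 (26.9 to 58.9), chr3:31090034-31090305 (27.6 to 49.9) and chr3:31093708-31094250 just upstream of the start (12.7 to 40.0). With 8 regions higher and 5 lower, the Skil median moved by 7.18 points.

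**Figure D5:**
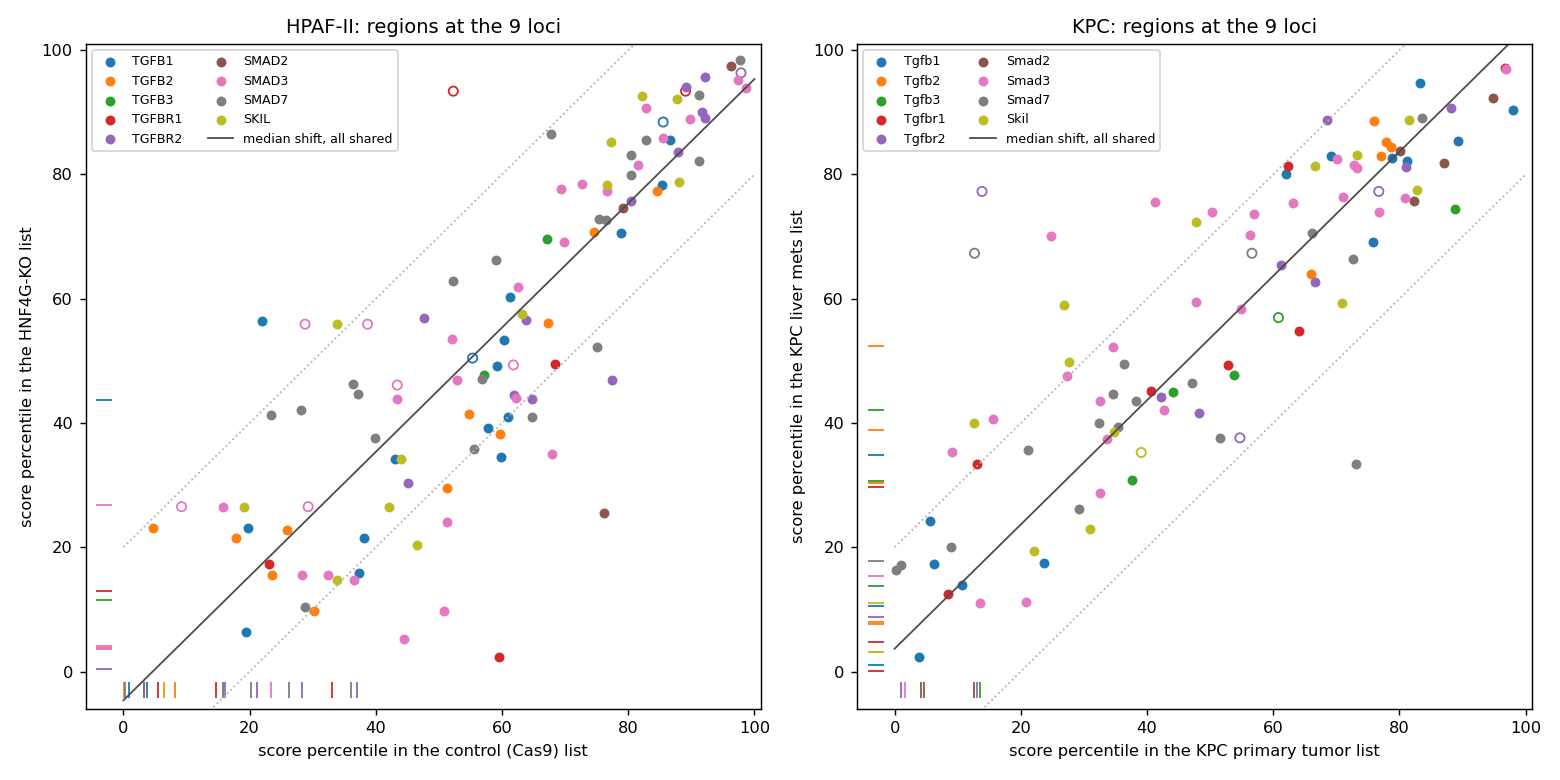
Score percentile of each shared region of the 9 loci in the first list of its pair (x axis) and in the second (y axis), colored by gene, with open circles for regions that do not pair 1 to 1, ticks along the axes for regions in a single list, a solid line for the median shift of all shared regions and dotted lines at 20 points. In HPAF-II 17 points lie at or under the lower dotted line and in KPC 14 at or above the upper one, and the ticks gather at low percentiles.

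Across the 9 HPAF-II loci, 113 shared control regions, each paired with its longest HNF4G-KO overlap, moved by a median of -3.75 points (interval -7.04 to -0.896). Of these, 72 were lower and 41 higher in HNF4G-KO. Falls of 20 points or more were seen at 17, 15.0%, where the background over all 88632 shared regions was 14.9%, and rises at 4, 3.54%, where it was 2.85%. The median over all shared regions was -4.65, so the loci moved about as the list did. The lists differ in size, which shifts own-list percentiles. Ranked among the shared regions alone, the split was 45 lower and 68 higher with a median of 2.14 (all shared regions 0.68). On that scale 6 fell and 11 rose by 20 points, 5.3% and 9.7%, beside 6.1% and 7.2% of all shared regions. The 6 falls on both scales were those of TGFBR1, TGFBR2 past its end, SMAD2 and 3 regions of SMAD3. Of the 102 pairs that matched 1 to 1, 17 fell and 2 rose by 20 points, 16.7% and 1.96%. Over all 82786 such pairs the shares were 15.1% and 1.80%.

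Across the 9 KPC loci, 100 shared tumor regions, each paired with its longest mets overlap, moved by a median of 4.13 points (interval 0.922 to 7.62). Of these, 34 were lower and 66 higher in mets. Rises of 20 points or more were seen at 14, 14.0%, where the background was 12.9%, and a fall at 1, 1.00%, where it was 5.12%. Among the shared regions alone the median was 1.11 (all shared regions 0.99). On that scale 9 rose and 3 fell by 20 points, 9.0% and 3.0%, beside 8.6% and 7.4% of all shared regions. Of the 93 pairs that matched 1 to 1, 12 rose and 1 fell by 20 points, 12.9% and 1.1%. Over all 59181 such pairs the shares were 12.9% and 4.9%. The rises belonged to Smad3 (6), Skil (4), Tgfbr2 (2), Tgfbr1 (1) and Smad7 (1).

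Consensus letters in the central 200 bases were about as frequent at the loci as in the lists. AP-1 letters (TGACTCA or TGAGTCA) were in 19.4% of the 134 control regions, beside 19.5% of the list, in 24.4% of HNF4G-KO regions (20.2%), in 27.1% of tumor regions (24.8%) and in 27.3% of mets regions (26.2%). The SMAD letters CAGACA were in 16.4% of control regions (16.2%), 13.0% of HNF4G-KO regions (15.9%), 15.0% of tumor regions (17.8%) and 18.2% of mets regions (18.1%). The palindrome GTCTAGAC, an ideal SMAD site, was in none, beside at most 0.21% of any list. Letters of rarer kinds rested on few regions. RUNX letters (TGTGGTTT) were in 7 of 134 control regions (5.22%, list 2.21%) and 3 of 123 HNF4G-KO regions (2.44%, list 2.21%). In KPC they were in 3.74% of tumor regions (list 3.08%) and 3.31% of mets regions (3.64%). TEAD letters (ACATTCCA) were in 5 of 121 mets regions (4.13%, list 2.09%). Elsewhere they were in 1.49% of control (list 1.68%), 0.813% of HNF4G-KO (1.625%) and 1.87% of tumor regions (1.87%). FOXA letters (TGTTTAC) were in 6 control regions (4.48%, list 4.38%). HNF4 letters were in 2 control regions (1.49%, list 0.73%), 1 HNF4G-KO region (0.813%, list 0.68%) and no KPC region. All letters were searched on both strands, and CAGACA is short enough to be common anywhere.

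The other 46 pathway genes, summed over windows of the same kind, held 662 control regions with 147 control-only (22.2%) and 565 HNF4G-KO regions with 26 KO-only (4.60%). In KPC they held 485 tumor regions with 38 tumor-only (7.84%) and 559 mets regions with 98 mets-only (17.5%). A region in overlapping windows counts in each of them, as the windows of ACVRL1 and ACVR1B and of SMAD5 and TGFBI overlap in both species. Control-only regions were most numerous at LTBP1, whose product holds latent TGF-beta in the matrix (14 of 32), BMP7, a bone morphogenetic protein ligand (8 of 21), and SMAD4, the common SMAD (6 of 11, level with TGIF1, SMURF1, ID3, ENG and ACVR1B). KO-only regions were most numerous at LTBP2 (3 of 24), the activin antagonist FST (2 of 5) and the ubiquitin ligase SMURF1 (2 of 14, level with LTBP1).

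Tumor-only regions were most numerous at Ltbp1 (5 of 37), Smad1 (3 of 14) and Fkbp1a (3 of 14), level with Ltbp3 and Id3. Mets-only regions were most numerous at Tgfbr3, the co-receptor betaglycan (10 of 14), Tgfbi, a matrix protein induced by TGF-beta (8 of 16), and Smurf1 (6 of 21). All 4 shared regions of Tgfbr3 and 5 of 8 of Tgfbi were higher by 20 points in mets. Summed again over the windows of the 46 genes, 58 of 515 shared HPAF-II regions were lower and 17 higher by 20 points in HNF4G-KO, 11.3% and 3.30%. In KPC, 14 of 447 shared regions were lower and 43 higher in mets, 3.13% and 9.62%. Against the backgrounds given above, these shares were lower for HPAF-II falls and for both KPC directions and higher for HPAF-II rises.

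SMAD3, the member with the most regions, was compared with 4387 genes of the same symbol in both species and at least 10 regions in every list. By Euclidean distance over the 4 shares of regions in a single list, in percentage points, VWA7 (2.53), CSRP1 (4.12) and SYS1 (4.37) were closest. All 3 had 1 or 2 such regions in each list.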

How the data were processed

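Samples were assigned to groups from their labels. The submitters' processing notes name Bowtie2 2.2.6, MACS2 2.1.1.20160309 and DiffBind with hg38 and mm10, without their roles, and the study's ATAC-seq methods, which name HPAF-II only, do not state the read shift or the peak threshold. The study says that its HPAF-II data combine the replicates, not at which step. The authors deposited 1 region list per group, and the scale of the deposited score is not stated, so only its rank within a list was used. No region ran past a chromosome's end in hg38 (24 chromosomes) or mm10 (21). A list with deeper libraries can hold more weak regions.

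Windows were drawn from GENCODE 44 and M21, start-site regions lay within 1 kb of a start site, and coordinates are 1-based. Each shared region of the first list of a pair, control or primary tumor, was compared with its longest overlap in the second list, second minus first. A difference of 20 percentile points was called. No test was made, because no replicate values were held. All members, their start-site regions, their strongest regions in a single list and those that moved by 20 points were eligible for naming. The overlap code was tested on simulated data. Medians carry order-statistic 95% intervals. The Python libraries numpy, scipy and pandas were used. The members and gene lists were chosen with earlier results of these data known. The whole-list shares at equal size and in the upper 50%, and the sequences at TGFBR2, of the largest rise and of the weaker Tgfb2 region were added after the values were seen. Some items are not reported here.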

Additional observations from a re-analysis of the deposited data

How the results depend on the processing

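No paired analysis was possible because each group was held as 1 region list without replicate values, and leaving out a replicate could not be run for the same reason. Of 44 alternatives, 40 stayed within the counting interval of the reported value: windows of 10 or 100 kb, an overlap of 50% of the shorter region, regions within 500 bp counted as shared, no regions at other genes' start sites, locus means, 1 to 1 pairs and the other list as anchor all did. In the upper 50% of both lists, paired anew, the control-only share was 30.3% (whole list 22.1%), counting regions whose partner fell below the cut. Lists of equal size held the strongest 87342 regions of each HPAF-II list and the strongest 61266 of each KPC list. Partners could fall below these cuts too. The control-only share was then 8.41% (13.7%), the KO-only share 11.6% (11.7%), the mets-only share 8.42% (13.0%) and the tumor-only share 9.47% (14.5%). At the loci the larger share of each pair thus changed sides, while over the whole lists it did so in KPC alone. Ranked among the shared regions, the median HPAF-II change turned from -3.75 to 2.14 points, because own-list percentiles shift with the length of the list. The depth behind each region is unknown, and scores were compared only as ranks.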
